A study of Mus musculus with 20 samples.

Results

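The genes examined were those of the bone morphogenetic protein (BMP) signal and its extracellular inhibitors: the ligand genes Bmp2, Bmp3, Bmp4, Bmp5 and Bmp7 and the antagonist genes Grem1, Nog, Chrd and Chrdl1. They were taken by gene symbol, and all 9 had a probe set, out of 19936 genes tested; each had exactly 1 probe set, so no choice between probe sets arose. The arrays came from whole limbs of 129Sv mouse embryos at embryonic day 13.5, 1 limb per array, with 5 arrays in each of 4 groups: forelimbs and hindlimbs of wild-type embryos and of Lmx1b -/- embryos, the loss-of-function mutants called knockouts below. The series asks which limb genes LMX1B controls. The labels name no other allele and no treatment for any group. Whether 2 limbs may share an embryo is not stated in the labels, and the p-values therefore describe limb-to-limb spread only. In whole-limb RNA, fewer cells that make a transcript and less transcript per cell cannot be told apart.

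BMPs are secreted growth factors of the TGF-beta family that signal through serine/threonine kinase receptors and Smad proteins, and in the limb they shape digits, interdigital cell death, cartilage and joints. Their reach is set outside the cell by antagonists that bind the ligands, among them gremlin 1 (Grem1), noggin (Nog), chordin (Chrd) and chordin-like 1 (Chrdl1). In the early limb bud Grem1 links Shh, made by posterior mesenchyme, to Fgf genes of the apical ectodermal ridge by holding BMP activity down. LMX1B is a LIM-homeodomain transcription factor of the dorsal limb mesenchyme that gives the limb its dorsal identity.

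In short, Grem1 was the member that differed most between genotypes: its level fell in knockout limbs of both types, by more in forelimbs, although the test of that difference missed the threshold. In knockout limbs of both types Grem1 lay near the array medians. The Grem1 call in hindlimbs was lost in 4 of 14 other settings. Among the ligands, Bmp2 was higher and Bmp3 lower without Lmx1b, both over both limb types and in forelimbs. The Bmp2 call in forelimbs was lost in 15 of 20 fits with an array left out, and in 7 of 14 other settings. The Bmp3 call in forelimbs was lost in 3 of those 14 settings. Over both limb types each call was lost in 2 of 13 other settings. Bmp4, Bmp5, Bmp7, Nog, Chrd and Chrdl1 passed the test in no genotype comparison. Between limb types, Grem1, Bmp5 and Bmp3 were lower in wild-type hindlimbs than in wild-type forelimbs. Bmp4 was lower in knockout hindlimbs than in knockout forelimbs. With an array left out, this Bmp3 call was lost in 8 of 20 fits and this Bmp4 call in 7. In 13 other settings these calls of Grem1, Bmp5, Bmp3 and Bmp4 were lost in 1, 2, 3 and 5.

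The arrays followed their labels. The median intensity per array lay between 28.6 and 31.8, which is 4.84 to 4.99 on the log2 scale used for all values here. Lmx1b itself lay between 6.14 and 6.52 in wild-type and between 5.60 and 6.09 in knockout limbs, without overlap; where its probes lie relative to the deleted part was not checked. The forelimb factor Tbx5 (8.26 to 8.93 in forelimbs, 4.38 to 5.09 in hindlimbs) and the hindlimb factor Pitx1 (8.22 to 8.57 in hindlimbs, 5.18 to 5.75 in forelimbs) separated the limb types, and the limb mesenchyme factor Prrx1 was high throughout, at 9.50 to 9.92. By Y-linked transcripts, all 5 wild-type forelimbs were male, 2 of 5 knockout forelimbs were male, and each hindlimb group held 3 male and 2 female limbs. Some left and right limbs with the same number in the labels differed in sex and so came from different embryos. They were knockout forelimb replicates 1 and 4, knockout forelimb replicates 2 and 5, and hindlimb replicates 7 and 10 of each genotype. The mean log2 level of 16 skeletal muscle markers was 7.98 to 8.34 in wild-type and 7.65 to 8.01 in knockout forelimbs, 7.31 to 7.69 in wild-type and 7.31 to 7.73 in knockout hindlimbs. That of 6 tendon markers was 7.38 to 7.76, 6.92 to 7.20, 6.57 to 7.10 and 6.60 to 6.96 in the same order, and no marker was at 0. One array, knockout hindlimb replicate 6, stood apart: it had the highest epidermis marker level of its group (7.58, where the group's lowest was 6.66) and the lowest level of its group for Grem1, Bmp2, Bmp7, Nog, Chrd and Chrdl1. The results of Grem1, Nog, Chrd and Chrdl1 are given with and without it.

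The stretch around the transcription start is shown for Grem1 and Bmp5, the pair of members with the largest difference between wild-type hindlimbs and forelimbs among the 4 whose promoter was in the reference table (Bmp4, Bmp5, Grem1 and Chrd). Both run from 250 bases before to 50 bases after the RefSeq start on GRCm38.p6, 5′ to 3′ on the gene's strand, at chr2:113758599-113758898 (minus strand) for Grem1 and chr9:75775115-75775414 (plus strand) for Bmp5. Capitals mark TAAT, the core motif of homeodomain proteins, and GGGCGG, the GC box, read on both strands.
Grem1: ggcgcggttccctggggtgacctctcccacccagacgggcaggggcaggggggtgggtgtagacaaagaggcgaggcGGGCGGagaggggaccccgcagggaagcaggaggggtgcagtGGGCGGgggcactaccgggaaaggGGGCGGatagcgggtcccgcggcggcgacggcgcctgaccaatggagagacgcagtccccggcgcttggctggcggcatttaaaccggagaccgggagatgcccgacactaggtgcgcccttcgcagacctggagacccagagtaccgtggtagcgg
Bmp5: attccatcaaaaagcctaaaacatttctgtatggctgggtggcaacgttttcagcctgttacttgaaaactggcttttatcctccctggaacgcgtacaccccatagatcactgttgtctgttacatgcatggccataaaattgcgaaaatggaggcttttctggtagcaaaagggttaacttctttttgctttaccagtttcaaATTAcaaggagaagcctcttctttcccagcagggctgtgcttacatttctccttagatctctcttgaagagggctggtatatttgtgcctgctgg
The Grem1 promoter held 3 GGGCGG matches, at -173, -131 and -107 from the start, and 0 TAAT matches, while the Bmp5 promoter held 1 TAAT match (ATTA on the printed strand, at -45) and 0 GGGCGG matches. Over 32851 promoters of the same length, 58.0% held TAAT and 35.7% held GGGCGG. The GC content was 70.7% for Grem1 and 43.3% for Bmp5, against a median of 52.7%, and 8.58% of promoters had a GC content at or above that of Grem1. The Bmp4 promoter held 1 match of each motif, and that of Chrd held 4 GGGCGG and 0 TAAT matches. A match is a string of letters, not a shown binding site, and the arrays do not measure binding.

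Grem1 encodes gremlin 1, the BMP antagonist that takes part in the Shh and Fgf feedback loop. Its log2 level was 6.80, 6.49, 6.66, 6.81 and 6.82 in the 5 wild-type forelimbs and 5.26, 5.29, 5.57, 5.28 and 5.15 in the 5 knockout forelimbs. Every knockout forelimb thus lay below every wild-type forelimb, with a gap wider than the range within either group. The difference was -1.40 (SE 0.109), or 2.65-fold lower, with an adjusted p of 6.20e-08 in limma. In this comparison 3 of the 9 members passed the test (Grem1, Bmp2 and Bmp3) against a background of 1.27% of all genes.

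In hindlimbs, Grem1 lay at 5.75, 5.81, 5.72, 5.79 and 5.82 in wild-type and at 4.70, 5.19, 5.51, 5.24 and 5.32 in knockout limbs. The groups again did not overlap, and the wild-type hindlimbs were tightly bunched while knockout hindlimb replicate 6 was the lowest of all 20 arrays. The difference was -0.59 (SE 0.109; limma, adjusted p = 0.0145), and Grem1 was the 1 member of 9 called in hindlimbs, where 0.231% of all genes were called. Without knockout hindlimb replicate 6 it was -0.46 (adjusted p = 0.0153). The call was lost without wild-type hindlimb replicate 10 (adjusted p = 0.0524) and with the hindlimb arrays fitted alone (0.0995). It was also lost among male limbs alone (0.0508), with the replicate numbers as a block (0.0524) and with same-number limbs averaged (0.228). By the sex calls, that averaging joined limbs of unlike sex, hence of different embryos, in hindlimb replicates 7 and 10 of each genotype.

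The order of Grem1 levels was therefore wild-type forelimb (6.72 ± 0.145, SD, n = 5), wild-type hindlimb (5.78 ± 0.0412), knockout forelimb (5.31 ± 0.156) and knockout hindlimb (5.19 ± 0.301). The last neighbours in that order, the knockout groups, did not differ beyond their spread: hindlimb minus forelimb was -0.12 (95% interval -0.35 to 0.11, adjusted p = 0.800). The wild-type hindlimbs and knockout forelimbs did not overlap, and that difference was not tested. The genotype effect in hindlimbs minus that in forelimbs was 0.82 (SE 0.154) with an unadjusted p of 2.78e-05 and an adjusted p of 0.0808, which missed the threshold. In this test 0 of 9 members and 0.0201% of all genes were called. It passed without knockout hindlimb replicate 6 (0.94, adjusted p = 0.00195) and without knockout forelimb replicate 3 (0.88, adjusted p = 0.0386). The genotype and limb-type comparisons share arrays and are not independent of each other. Knockout levels of Grem1 (4.70 to 5.57) lay near the array medians (4.84 to 4.99), where differences can be compressed. The part of this in the smaller hindlimb difference, and in the like levels of both knockout groups, was not tested.

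Averaged over both limb types, the Grem1 difference was -0.99 (SE 0.077), with an adjusted p of 4.12e-08 in limma, and this call and the forelimb call held in every alternative and without any single array. In forelimbs, where the difference was greatest, mean marker levels of other tissues also differed between genotypes. The tendon list did not overlap (above), and the muscle list overlapped in part. The mean of the 5 measured osteoblast and perichondrium markers lay at 5.12 to 6.05 in wild-type and 4.86 to 5.09 in knockout forelimbs. The mean of the 6 limb mesenchyme markers was higher in knockout forelimbs, at 8.22 to 8.51 in wild-type and 8.57 to 8.78 in knockout limbs, without overlap. Single genes of this list differed by -0.027 to 0.47 there, and 0 were called. The mean of the 6 macrophage markers lay at 5.35 to 5.69 in wild-type and 5.17 to 5.50 in knockout forelimbs. Called lower in knockout forelimbs were 4 of 16 muscle, 2 of 6 tendon and 4 of 5 osteoblast and perichondrium markers. So were 2 of 6 macrophage and 1 of 6 endothelium markers, against 1.27% of all genes called, and 0 in these lists were higher. The 5 measured erythroid markers had a median difference of -0.56, and 0 were called. With the muscle level as a covariate the Grem1 forelimb difference kept its call; the part of the other lists in it was not tested. The genes beside Grem1 on the chromosome, in the order Fmn1, Grem1, Scg5 and Arhgap11a, passed the test in no comparison. Fmn1, the formin gene known to hold limb enhancers of Grem1, differed by 0.05 over both limb types (95% interval -0.10 to 0.20, adjusted p = 0.805). Scg5 differed by -0.10 (interval -0.23 to 0.03, adjusted p = 0.504) and Arhgap11a by 0.07 (interval -0.05 to 0.19, adjusted p = 0.606). The group means of Fmn1 (4.74 to 4.82) and Scg5 (4.76 to 4.96) lay near the array medians (4.84 to 4.99). A change in these genes would be hard to see at such levels.

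**Figure D1:**
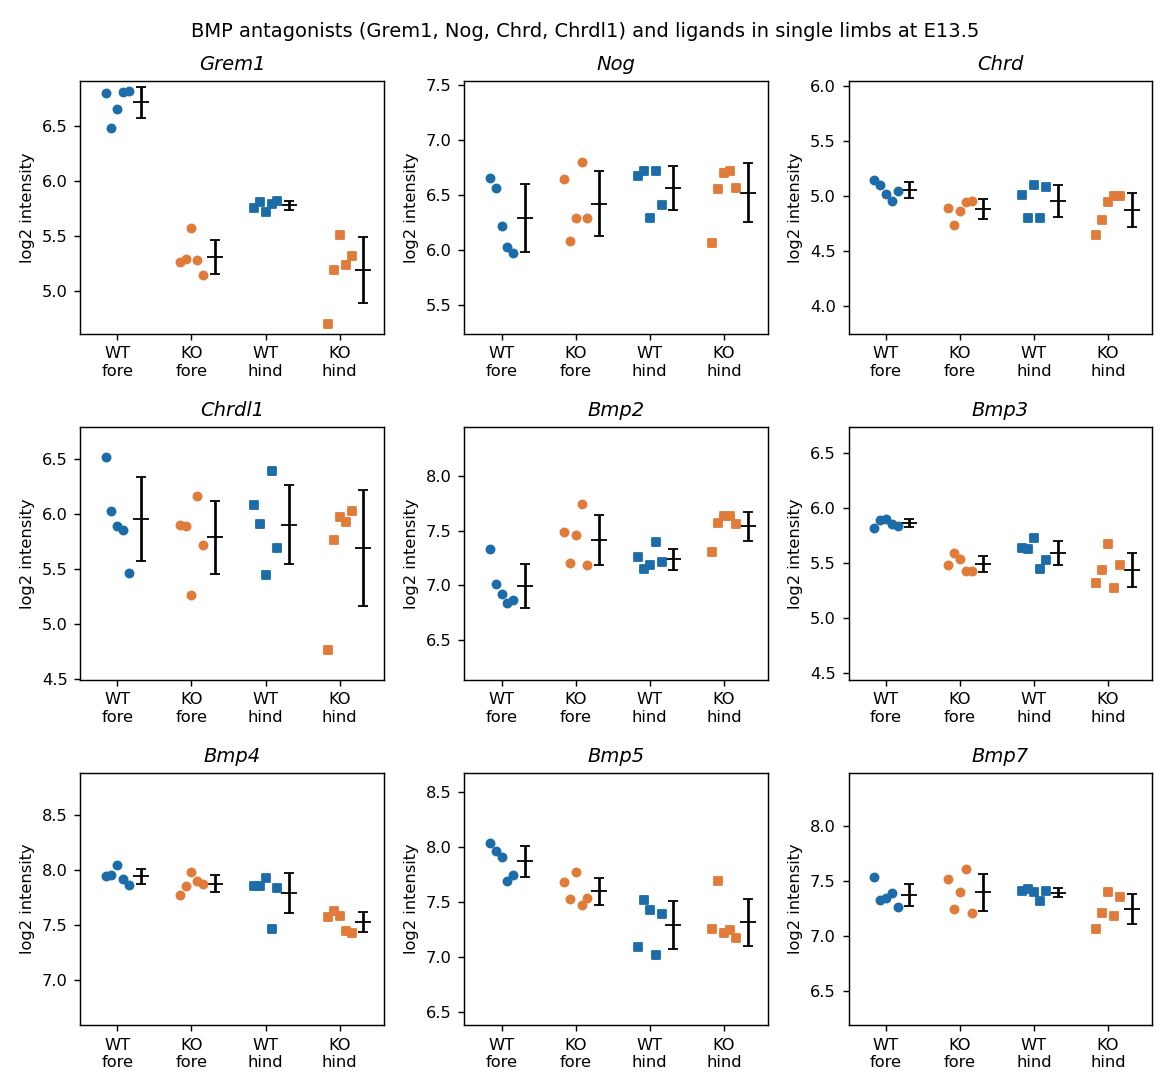
Log2 intensity of the 9 genes in each limb, with 1 panel per gene, 1 point per array and bars for the group mean and SD (n = 5); the vertical span is the same in every panel while its position is not, since levels of different genes are not comparable. Grem1 forms separate bands in wild-type forelimbs (6.49 to 6.82), wild-type hindlimbs (5.72 to 5.82) and the knockout groups (4.70 to 5.57), while most other genes overlap between groups.

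The other antagonists showed no genotype call. Nog, which encodes noggin, needed for joints and for limiting BMP in cartilage, lay at 6.66, 6.56, 6.22, 6.03 and 5.97 in wild-type and 6.64, 6.08, 6.29, 6.80 and 6.29 in knockout forelimbs. In hindlimbs it lay at 6.67, 6.72, 6.29, 6.72 and 6.40 in wild-type and 6.07, 6.56, 6.70, 6.72 and 6.56 in knockout limbs. Groups overlapped widely in both limb types. Over both limb types its difference was 0.05 with a 95% interval of -0.18 to 0.27 (limma, adjusted p = 0.892), so an effect as large as that of Grem1 lies outside the interval. Without knockout hindlimb replicate 6 it was 0.10, and the hindlimb difference went from -0.04 to 0.07.

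Chrdl1, which encodes chordin-like 1, had the widest spread of the members. Its level was 6.52, 6.03, 5.89, 5.86 and 5.47 in wild-type forelimbs and 5.91, 5.89, 5.27, 6.16 and 5.72 in knockout forelimbs. In hindlimbs it was 6.08, 5.91, 5.45, 6.40 and 5.70 in wild-type and 4.77, 5.76, 5.98, 5.93 and 6.03 in knockout limbs. The low value of 4.77 came from knockout hindlimb replicate 6, and all groups overlapped. The difference over both limb types was -0.19 (95% interval -0.52 to 0.14, adjusted p = 0.630), an interval that admits changes in either direction. Without knockout hindlimb replicate 6 it was -0.07, and the hindlimb difference went from -0.21 to 0.02. Chrd, which encodes chordin, lay between 4.64 and 5.14 over all 20 arrays, near the median of all probe sets on each array, and differed by -0.13 (95% interval -0.24 to -0.01, adjusted p = 0.282), and by -0.10 without knockout hindlimb replicate 6.

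Within groups, Nog and Chrdl1 levels varied with marker levels of other tissues. After the group mean was taken from each array, Nog correlated with the mean of 10 epidermis and apical ridge markers at Pearson's r = -0.842 (Spearman's rho = -0.845) over 20 arrays, and at -0.837 without the 2 arrays farthest out. For Chrdl1 the values were -0.907, -0.871 and -0.821. Both correlations were negative, and the part of epidermis content in the levels was not tested. For Grem1 the same correlation was -0.332, and -0.051 without the 2 farthest arrays, so it did not follow the epidermis level in this way. With 6 joint interzone markers, among them Gdf5, none a member, Nog correlated at 0.855 and Chrdl1 at 0.768. Other lists varied with these genes too: Chrdl1 correlated with macrophage markers at -0.736 and endothelium markers at -0.552. Nog correlated with cartilage markers at 0.629. The arrays' shared RNA input and normalization enter both sides of each correlation, 117 pairs of member and marker list were computed, and these are given as a description.

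**Figure D2:**
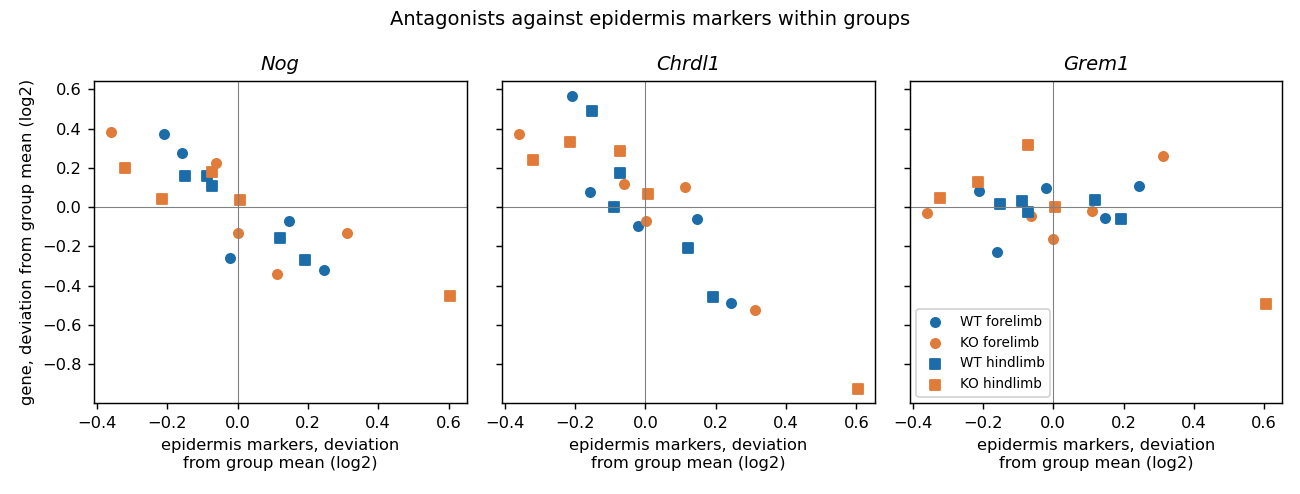
Deviation of each array from its group mean for Nog, Chrdl1 and Grem1 (vertical, log2) against that of the mean of 10 epidermis and apical ridge markers (horizontal, log2), with 20 arrays per panel. The points of Nog and Chrdl1 fall from upper left to lower right (Pearson's r = -0.842 and -0.907), those of Grem1 lie flat apart from knockout hindlimb replicate 6 at the far right (r = -0.332).

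Of the ligands, Bmp2, made in the limb's posterior mesenchyme, apical ridge and later interdigits, was higher in knockouts. Its level was 7.33, 7.01, 6.92, 6.84 and 6.86 in wild-type and 7.48, 7.20, 7.46, 7.74 and 7.18 in knockout forelimbs. In hindlimbs it was 7.26, 7.15, 7.18, 7.39 and 7.21 in wild-type and 7.31, 7.56, 7.63, 7.63 and 7.56 in knockout limbs. In forelimbs 3 of 5 knockout values lay above the wild-type range, which 1 high wild-type array (replicate 1) extended, and in hindlimbs 4 of 5 did. Over both limb types Bmp2 rose by 0.36 (SE 0.073; limma, adjusted p = 0.00877), and 3 of the 9 members were called in that comparison (Bmp2, Bmp3 and Grem1) against 2.04% of all genes. In forelimbs the rise was 0.42 (SE 0.103, adjusted p = 0.0447), a call that held without each of only 5 arrays (replicates 1 and 9 of the wild type, a forelimb and a hindlimb, and replicates 2, 5 and 6 of the knockout, the last a hindlimb) and was lost without each of the other 15 (adjusted p up to 0.153). In hindlimbs the difference was 0.30 (adjusted p = 0.546). Among male limbs alone the rise over both limb types was 0.28 (adjusted p = 0.418), and with muscle markers as a covariate 0.30 (adjusted p = 0.211). The mean level of the limb mesenchyme markers was higher in the same forelimbs (above), and its part in the Bmp2 difference was not tested.

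Bmp3 encodes an atypical member of the family that opposes other BMPs in bone. It lay at 5.82, 5.89, 5.90, 5.85 and 5.84 in wild-type and at 5.48, 5.59, 5.53, 5.42 and 5.42 in knockout forelimbs. These groups did not overlap, and the wild-type forelimbs were tightly bunched. In hindlimbs it was 5.63, 5.62, 5.72, 5.45 and 5.52 in wild-type and 5.32, 5.43, 5.67, 5.27 and 5.48 in knockout limbs, and the groups overlapped. Over both limb types Bmp3 fell by 0.26 (SE 0.049; limma, adjusted p = 0.00438), in forelimbs by 0.37 (SE 0.069, adjusted p = 0.00633), and the hindlimb difference was -0.16 (adjusted p = 0.838). With muscle as a covariate the first 2 became -0.24 (adjusted p = 0.100) and -0.33 (0.267), and with same-number limbs averaged -0.25 (0.0750) and -0.37 (0.0880). The forelimb and hindlimb effects differed by 0.22 (SE 0.098) with an adjusted p near 1.00. The mean Bmp3 level of male limbs was below that of female limbs in each group that held both, without a test: 5.45 and 5.51 in knockout forelimbs, 5.54 and 5.67 in wild-type hindlimbs and 5.34 and 5.57 in knockout hindlimbs. The wild-type forelimbs, the highest group, were all male and so give no such comparison. Among male limbs the forelimb difference was -0.41 (adjusted p = 0.0644).

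Bmp4, the ligand most used in limb mesenchyme and ridge, was 7.94, 7.95, 8.05, 7.92 and 7.86 in wild-type and 7.77, 7.86, 7.98, 7.90 and 7.87 in knockout forelimbs. In hindlimbs it was 7.85, 7.86, 7.92, 7.47 and 7.84 in wild-type and 7.57, 7.62, 7.58, 7.44 and 7.42 in knockout limbs. Forelimbs overlapped, and in hindlimbs 4 wild-type arrays lay above all knockout arrays while wild-type replicate 9 lay among them. The hindlimb difference was -0.26 (SE 0.074, adjusted p = 0.305) and the difference over both limb types -0.16 (adjusted p = 0.122). Without wild-type hindlimb replicate 9 these became -0.34 (adjusted p = 0.00813) and -0.20 (adjusted p = 0.00876), so that the hindlimb call turned on 1 array. Over both limb types the difference also passed with array weights (-0.19, adjusted p = 0.0353).

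Bmp5, which takes part in skeletal condensation, was 8.04, 7.97, 7.91, 7.69 and 7.75 in wild-type and 7.68, 7.53, 7.77, 7.47 and 7.54 in knockout forelimbs. In these groups 4 of 5 knockout values lay below the wild-type range, and the difference was -0.27 (SE 0.107, adjusted p = 0.263). In hindlimbs it was 7.09, 7.52, 7.43, 7.02 and 7.39 in wild-type and 7.25, 7.70, 7.22, 7.25 and 7.18 in knockout limbs. These overlapped, at a difference of 0.03 (95% interval -0.20 to 0.25). Bmp7, made in ridge and mesenchyme, lay between 7.06 and 7.61 in all 20 arrays and differed by -0.06 over both limb types (95% interval -0.18 to 0.05, adjusted p = 0.644).

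**Figure D3:**
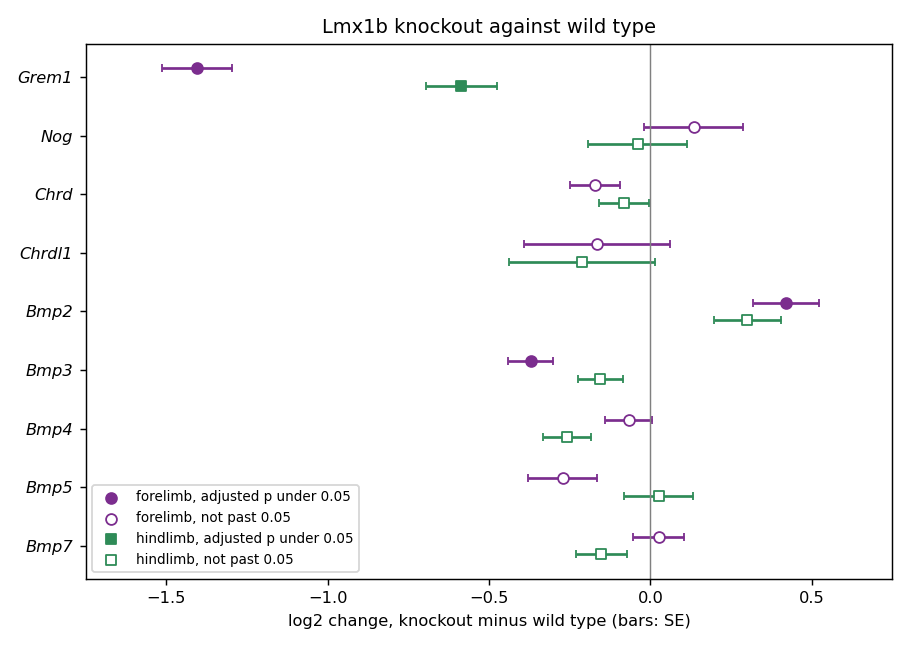
Difference in log2 intensity between Lmx1b knockout and wild-type limbs (horizontal; bars are the SE) for each gene, in forelimbs (circles) and hindlimbs (squares), filled where the adjusted p was under 0.05. Grem1 is called in both limb types (-1.40 and -0.59), Bmp2 (0.42) and Bmp3 (-0.37) in forelimbs, and the other 6 genes in neither.

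Among themselves, several members varied together within groups. Of 36 pairs, 8 had a Pearson's r above 0.5 after group means were taken off, and 0 had one below -0.5. Bmp2 and Nog correlated at 0.833 (Spearman's rho = 0.780, and r = 0.775 without the 2 arrays farthest out), Nog and Chrdl1 at 0.803 and Bmp2 and Bmp7 at 0.761. Bmp2 also followed the epidermis markers, at -0.658, and the joint markers, at 0.690. Bmp2 and Grem1, which moved in opposite directions between genotypes, correlated at 0.369 within groups. These are descriptions over 20 arrays that share a normalization.

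The levels also differed by limb type. In wild type, the hindlimb minus forelimb difference of Grem1 was -0.94 (SE 0.109), or 1.91-fold lower, with an adjusted p of 2.66e-05 in limma. That of Bmp5 was -0.58 (SE 0.107, adjusted p = 0.00359) and that of Bmp3 -0.27 (SE 0.069, adjusted p = 0.0334), and for these 3 genes all 5 hindlimbs lay below all 5 forelimbs. The 3 of 9 members called, all lower in hindlimbs, stand against 3.26% of all genes, and 2.49% lower. Bmp2 was 0.24 (adjusted p = 0.227) and Nog 0.27 (adjusted p = 0.393) in the other direction, without passing the test. The Bmp3 call was lost without each of 8 arrays: wild-type forelimb replicates 2, 3, 4 and 5 and wild-type hindlimb replicates 6, 7, 9 and 10, with adjusted p from 0.0584 to 0.121. The muscle marker level did not overlap between wild-type forelimbs and hindlimbs, nor did that of tendon, and the early stage genes Lin28b, Hmga2, Igf2bp1 and Igf2bp3 averaged 7.05 to 7.47 in wild-type forelimbs and 7.41 to 7.69 in hindlimbs. With muscle as a covariate the Grem1 difference was -0.68 (adjusted p = 0.483) and that of Bmp5 -0.26 (adjusted p = 0.954); limb type and muscle content cannot be told apart here.

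In knockout limbs, 1 of 9 members was called, against 0.617% of all genes: Bmp4 was lower in hindlimbs, at a difference of -0.35 (SE 0.074; limma, adjusted p = 0.0265), with all 5 hindlimbs (7.42 to 7.62) below all 5 forelimbs (7.77 to 7.98). The corresponding wild-type difference was -0.16 (adjusted p = 0.294), and the effects' difference (-0.19) had an adjusted p near 1.00. The Bmp4 call was lost without each of 7 arrays (among the knockouts, replicates 2, 3, 4 and 5 of the forelimbs and 8, 9 and 10 of the hindlimbs; adjusted p from 0.0513 to 0.0976) and with the knockout arrays fitted alone (adjusted p = 0.0590). Bmp5 differed by -0.28 (adjusted p = 0.351). Neither Grem1 (-0.12) nor Bmp3 (-0.05, adjusted p = 0.871) was called.

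**Figure D4:**
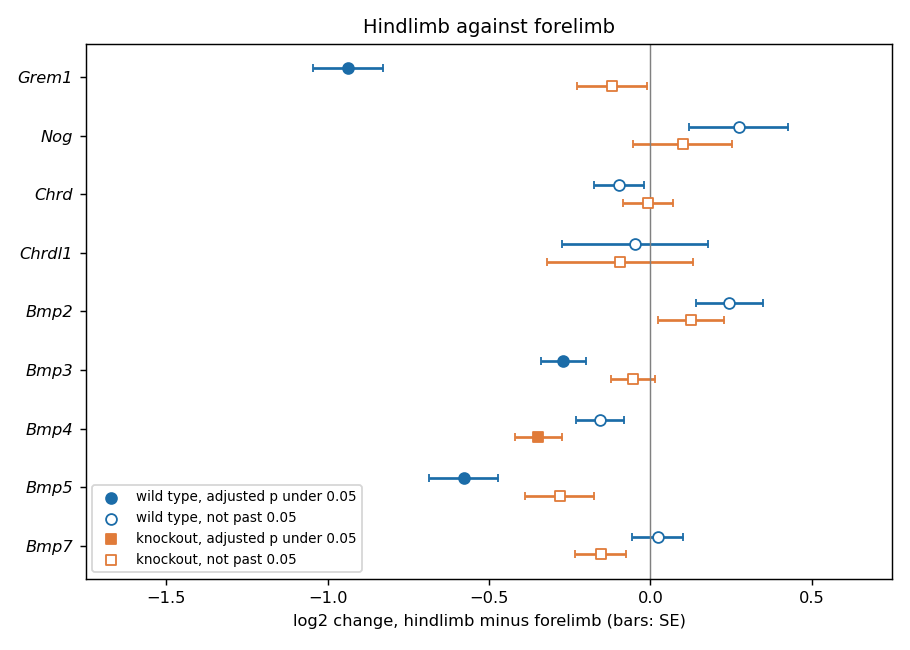
Difference in log2 intensity between hindlimbs and forelimbs (horizontal; bars are the SE) for each gene in wild-type (circles) and knockout limbs (squares), filled where the adjusted p was under 0.05. Grem1 (-0.94), Bmp5 (-0.58) and Bmp3 (-0.27) are called in wild type and Bmp4 (-0.35) in knockouts.

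Around the members, 72 of 75 other genes were measured: those of the pathway, its Shh and Fgf partners and the 3 neighbours of Grem1. Over both limb types 2 of these 72 were higher and 2 lower in knockouts, which is 5.56% against 2.04% of all genes. Nbl1, whose product is a secreted BMP antagonist of the same family as gremlin 1, rose by 0.35 (SE 0.043; limma, adjusted p = 2.87e-05), from 7.16 to 7.40 in all wild-type limbs to 7.44 to 7.90 in all knockout limbs, without overlap. It was the 1 call among 16 measured extracellular modulators, beside uncalled Sostdc1 (0.22, adjusted p = 0.131) and Bmper (0.20, adjusted p = 0.135). Nbl1 was called in forelimbs too (0.48, SE 0.060), and both calls held in every alternative and without any single array.

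Of 15 measured BMP target genes 1 passed, Hand2, a bHLH factor of the posterior limb, which rose by 0.31 (SE 0.061, adjusted p = 0.00644). The list's median difference was 0.12, where that of all genes was -0.0021. It was 0.15 in forelimbs and 0.04 in hindlimbs. The limb mesenchyme markers, which share Msx1 with this list, had medians of 0.10 over both limb types, 0.24 in forelimbs and -0.07 in hindlimbs. The part of mesenchyme content in the target list was not tested. Id2 (0.17, adjusted p = 0.168) and Smad6 (0.16, adjusted p = 0.0858), which are induced by BMP signals in many tissues, did not pass. Of 12 genes of the Shh and Fgf loop, Hhip, a cell-surface inhibitor and target of hedgehog signalling, fell by 0.49 (SE 0.103, adjusted p = 0.0126), while Hoxd13 (0.35, adjusted p = 0.118) and Hoxa13 (0.21, adjusted p = 0.272) did not pass. The Hand2 and Hhip calls were lost among male limbs alone and with muscle as a covariate. Shh itself lay between 4.59 and 5.31 in all 20 arrays, near the array median.

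Among receptors and Smads 1 gene passed. Of 11 receptors and co-receptors, Hjv, the co-receptor hemojuvelin known from iron regulation and muscle, fell by 0.29 (adjusted p = 0.0464), a call lost without each of 15 of the 20 arrays (adjusted p up to 0.0961) and in 7 of 13 other settings, where the smallest difference was -0.11 with muscle as a covariate (adjusted p = 0.666). The co-receptor genes Rgmb (-0.16, adjusted p = 0.132) and Rgma (-0.12, adjusted p = 0.229) did not pass. Of 8 Smad and Smurf genes 0 passed, with differences between -0.11 and 0.16. Of 10 other BMP and GDF ligand genes 0 passed, the nearest being Bmp8a (-0.10, adjusted p = 0.463), the joint gene Gdf5 (-0.20, adjusted p = 0.589) and Bmp8b (-0.07, adjusted p = 0.685).

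**Figure D5:**
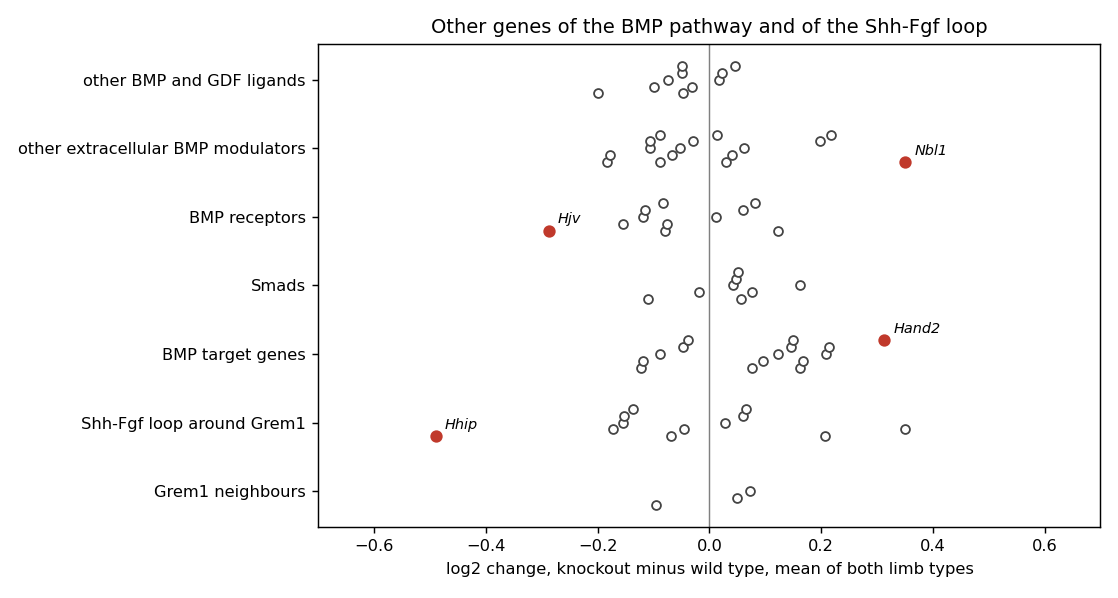
Difference in log2 intensity between knockout and wild-type limbs over both limb types (horizontal) for each measured gene, in lists by role, with 1 point per gene in each list. Smad6, Smad7 and Bambi stand in more than 1 list. Filled and named points had an adjusted p under 0.05. Nbl1 (0.35) and Hand2 (0.31) lie to the right, Hhip (-0.49) and Hjv (-0.29) to the left, and the neighbours of Grem1 lie near 0.

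In forelimbs alone, Nbl1 and Hand2 (0.42, SE 0.086, adjusted p = 0.0131) were the 2 called of these 72 other genes (2.78%, against 1.27% of all genes), and in hindlimbs 0 were, against 0.231%. The forelimb call of Hand2 was lost without wild-type forelimb replicate 5 (adjusted p = 0.0541) and without knockout forelimb replicate 4 (0.0524). Between limb types, in wild type 4 were higher and 4 lower in hindlimbs (11.1%, against 3.26% of all genes). The limb patterning genes Msx1 (0.64), Hoxa13 (0.69), Fgf10 (0.48) and Hand2 (0.31) were higher, and the antagonist Fst (-0.29), Hjv (-0.41), the BMP target Id4 (-0.74) and the T-box factor Tbx3 (-0.64) were lower. In knockout limbs 5 were lower in hindlimbs (6.94%, against 0.617% of all genes): Tbx3 (-0.61), Id4 (-0.45), Fst (-0.34), Nbl1 (-0.28) and Hhip (-0.82). With muscle as a covariate, Id4 alone of the 8 wild-type genes kept its call. With single arrays left out, the wild-type calls of Hand2, Hjv, Fst and Fgf10 were lost in 13, 7, 3 and 1 of 20 fits, and the knockout calls of Nbl1 and Fst in 6 and 5. In 13 other settings the knockout calls of Nbl1, Fst, Hhip, Id4 and Tbx3 were lost in 6, 5, 3, 2 and 1.

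Some genes outside the pathway had levels most like those of Grem1. Over 20 arrays the highest Pearson correlations were with Grm7, a glutamate receptor gene (0.929), Cbln2, which encodes a secreted synapse organizer (0.912), the calcium-binding protein gene Calb1 (0.911), the lipocalin gene Apod (0.909) and the homeobox gene Alx1 (0.903). The lowest were with Ddx52 (-0.868), Prokr2 (-0.851) and Paip2 (-0.836). All 5 of the first had their highest group mean in wild-type forelimbs, as Grem1 did; Alx1, for example, averaged 6.25 in wild-type and 4.97 in knockout forelimbs, 4.83 in wild-type and 4.39 in knockout hindlimbs. With group means taken off, other genes led, Sik2 and Zmiz2 (both 0.855), Septin9 (0.818), Msl2 (0.814) and Rtl6 (0.810), and none of the first 5. For Bmp2 the most alike were Hand2 (0.930), Peli1 (0.926), Hax1 (0.886), Septin6 (0.885) and Taf6 (0.882), and the least alike Steap4 (-0.879), Dcn (-0.854), which encodes the matrix proteoglycan decorin, and Atp1b4 (-0.851). Such likeness over arrays of 4 groups mostly repeats the group differences.

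Side was given for each limb, with 12 right and 8 left. Of the 9 members 0 differed between sides by limma, as did 0 of all genes (0%), while 1889 genes had an unadjusted p under 0.05. The lowest adjusted p among members was that of Bmp5 (-0.18, left minus right, adjusted p = 0.419).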

How the data were processed

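Total RNA of single limbs was hybridised to Affymetrix GeneChip 1.0 ST arrays, per the labels' protocols. The deposited values are intensities on a linear scale. RMA is the tool named per the submitters' processing notes; its version, annotation and build were not given in the sources used here. Background treatment and probe filtering by the authors could compress differences of dim probe sets, and no detection call was used. Log2 of the deposited intensity was taken here with no pseudocount. Of 35512 probe sets, 35511 had values on every array; of these, 21789 carried 1 gene symbol, 1621 carried several and 12101 had none here; genes with more than 1 probe set were represented by the one with the highest mean, which left 19936 genes. Symbols were updated through the Entrez identifier with RefSeq (GRCm38.p6) for 21698 probe sets.

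All comparisons came from 1 fit of 4 group means in limma 3.58.1 (lmFit, contrasts.fit, eBayes) under R 4.3.3, with Benjamini-Hochberg adjustment over all genes and 0.05 as the threshold; side was added for left against right. Tables were made in Python 3.11.15 with pandas 2.3.3 and numpy 2.4.6, and the fit was checked on simulated data. The members, the pathway and marker lists and the rule for named genes (members, called pathway genes, the 3 smallest p per list, Grem1 neighbours, and the genes most and least like Grem1 and Bmp2) were chosen with earlier results of these data known. Alternatives were 14 other settings and leaving out each of 20 arrays. Groups are those of genotype and limb in the labels; the arrays' number limits the precision.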

Additional observations from a re-analysis of the deposited data

Results flagged for a closer look

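Of 36 groups of 5 arrays (9 genes in 4 groups), 6 held 1 array far from the other 4, by its gap to the nearest array relative to the group's range; chance gives about 1 in 20 groups. In knockout hindlimbs, replicate 6 was the lowest for Bmp2 (7.31), Nog (6.07) and Chrdl1 (4.77), and the cause was not tested. In wild-type hindlimbs, replicate 9 was the lowest for Bmp4 (7.47) and Bmp7 (7.32). Knockout hindlimb replicate 7 was the highest for Bmp5 (7.70).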

How the results depend on the processing

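Grem1 kept its call over both limb types (-1.13 to -0.77) and in forelimbs (-1.51 to -1.12) in every alternative and without any single array, as did Nbl1 in both. For the other calls of the members the settings mattered, and the cause was not tested. Some settings also used fewer arrays or averaged them (male arrays only, the 2 groups of a comparison only, same-number limbs averaged). The title numbers showed no clear pairing: same-numbered wild-type and knockout arrays deviated from their group means with correlations of -0.313 to 0.256. Such arrays come from different embryos, so these values cannot tell whether they shared a litter or batch. The replicate block gave -0.59 (adjusted p = 0.0524) for Grem1 in hindlimbs and 0.42 (0.0631) for Bmp2 in forelimbs, ended no other call of a member, and left 356, 231, 43 and 3 genes called over both limb types, in forelimbs, in hindlimbs and for the difference between effects, against 406, 253, 46 and 4.

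Calls lost, besides those with the replicate block (above), as log2 difference with adjusted p. Bmp2 over both limb types: male arrays only 0.28 (0.418), muscle covariate 0.30 (0.211). Bmp3 over both limb types: muscle -0.24 (0.100), averaged limbs -0.25 (0.0750). Bmp2 in forelimbs: Y-linked covariate 0.40 (0.148), male 0.34 (0.526), muscle 0.31 (0.674), side 0.42 (0.0512), averaged 0.44 (0.0685), 2 groups 0.42 (0.148). Bmp3 in forelimbs: male -0.41 (0.0644), muscle -0.33 (0.267), averaged -0.37 (0.0880). Grem1 in hindlimbs: male -0.74 (0.0508), averaged -0.52 (0.228), 2 groups -0.59 (0.0995). Wild-type limb types: Bmp3 muscle -0.19, early stage -0.26, averaged -0.25; Bmp5 muscle -0.26, early stage -0.52; Grem1 muscle -0.68. Knockout limb types: Bmp4 male -0.28, muscle -0.27, early stage -0.24, averaged -0.36, 2 groups -0.35. The difference between the Grem1 effects passed with log2(intensity + 16) at 0.69 (0.0151), the Y-linked covariate at 0.93 (0.0424), a trended robust prior at 0.82 (0.0359) and array weights at 0.90 (0.00399).

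Members called were 1 over both limb types with muscle; 1 in forelimbs with male arrays, muscle or averaged limbs; 0 in hindlimbs with male arrays, the replicate block, averaged limbs or 2 groups; 1 for the difference between effects in the 4 settings where Grem1 passed; 0 with muscle and 1 with early stage in wild-type limb types; and 0 in knockout limb types with male arrays, muscle, early stage, averaged limbs or 2 groups. In each setting named here with fewer members called, fewer of all genes were called too. In hindlimbs with male arrays, for example, 13 of 19936 genes were called, against 46 in the main fit. With arrays left out in turn the members called ranged from 0 to 2 in hindlimbs and 0 to 1 for the difference between effects and for knockout limb types. Left-out ranges were 0.34 to 0.50 for Bmp2 in forelimbs, -0.67 to -0.46 for Grem1 in hindlimbs, 0.74 to 0.94 for the difference between its effects, -0.30 to -0.23 for Bmp3 between wild-type and -0.37 to -0.32 for Bmp4 between knockout limb types.

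Differences near 0 that changed sign were uncalled in both settings, apart from Hjv between wild-type limb types (0.15 with muscle). With muscle they were Nog over both limb types (-0.065), in forelimbs (-0.058), between wild-type (-0.072) and between knockout limb types (-0.087), Bmp4 in forelimbs (0.0070), the difference between Chrdl1 effects (0.20), and Grem1 (0.022) and Chrd (0.0018) between knockout limb types. With array weights they were Bmp5 (-0.0041) and Nog (0.013) in hindlimbs, the difference between Chrdl1 effects (0.036), and Chrd (0.025) and Chrdl1 (0.0097) between knockout limb types; with averaged limbs -0.014, 0.035, 0.15, 0.0077 and 0.040 in the same order. With male arrays they were Bmp7 in forelimbs (-0.0090), the difference between Chrd effects (-0.026), Chrdl1 between wild-type (0.10) and Nog between knockout limb types (-0.019). With the Y-linked covariate they were Bmp7 in forelimbs (-0.038) and between wild-type limb types (-0.020), with early stage Bmp7 between wild-type (-0.092) and Bmp2 (-0.070) and Nog (-0.052) between knockout limb types, and with centred arrays Chrd between knockout limb types (0.0051). Left-out ranges that crossed 0 were -0.00067 to 0.10 for Nog over both limb types; -0.029 to 0.072 for Bmp7 in forelimbs; -0.068 to 0.084 for Bmp5, -0.11 to 0.074 for Nog and -0.33 to 0.018 for Chrdl1 in hindlimbs; -0.19 to 0.18 for the difference between Chrdl1 effects; -0.0045 to 0.064 for Bmp7 and -0.17 to 0.095 for Chrdl1 between wild-type limb types; and -0.20 to 0.0050 for Grem1, -0.041 to 0.051 for Chrd and -0.23 to 0.14 for Chrdl1 between knockout limb types.

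Genes called over both limb types, in forelimbs and in hindlimbs fell to 67, 37 and 13 with male arrays, were 108, 48 and 52 with muscle and 216, 128 and 31 with averaged limbs, and rose to 768, 366 and 82 with array weights. Between wild-type limb types they went from 650 to 13 with muscle, 101 with early stage, 330 with averaged limbs, 419 with male arrays and 1260 with array weights, and between knockout limb types from 123 to 37, 33, 84, 13 and 210 in the same order and 44 with 2 groups; forelimbs gave 139 with the Y-linked covariate and 163 with 2 groups. For the difference between effects they were 2 with the filter on low values, 6 with log2(intensity + 16), 9 with array weights, and 0 with male arrays, muscle or averaged limbs. With arrays left out the counts ranged from 260 to 595 over both limb types, 124 to 436 in forelimbs, 33 to 54 in hindlimbs, 1 to 10 for the difference, and 311 to 848 and 60 to 140 between wild-type and knockout limb types. Left against right gave 0 to 1. Levels near the array median, as for Chrd, Shh, Fmn1, Scg5 and, in knockout limbs, Grem1, leave small differences hard to see.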
